A study of Mus musculus with 9 samples.

Results

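Regulators and effectors of the adipogenic, osteogenic and chondrogenic programmes were followed in mouse cardiosphere-derived cells, and 10 genes were chosen by their symbols. The 10 were Pparg, Cebpa, Cebpb, Fabp4, Lpl and Adipoq for fat, Runx2, Alpl and Spp1 for bone, and Sox9 for cartilage. Each symbol matched 1 of the 54532 genes in the deposited table. The largest differences that passed the test lay in a pair of differentiation enzymes, Lpl and Alpl, and in the transcription factor Sox9, all of which were lower in immortalized than in primary cells and higher in cells treated with SB431542 than in untreated immortalized cells. The level of Cebpb was higher after SB431542 than in either other group. Pparg passed the test in no comparison, and Adipoq was at or near 0 counts in all 9 libraries.

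Mesenchymal cells take on fat, bone or cartilage fates under a small set of transcription factors. C/EBPβ acts early in adipogenesis and precedes PPARγ and C/EBPα, which together switch on lipid handling genes such as Fabp4, Lpl and the hormone gene Adipoq. RUNX2 drives osteoblast commitment ahead of alkaline phosphatase and osteopontin, and SOX9 drives cartilage matrix genes. TGF-β ligands signal through type I receptor kinases and SMAD proteins, and SB431542 inhibits those kinases. Differentiation tests into these 3 lineages are commonly used to describe mesenchymal stromal cells, and cardiosphere-derived cells are grown from heart tissue through floating cell clusters.

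RNA sequencing was deposited for 9 libraries in 3 groups of 3, all from the C57BL/6 strain and heart ventricle. pECDCs were primary cells from explant culture, and the titles name them P0 whereas the study's methods describe RNA taken after some passages. iECDCs carried human telomerase reverse transcriptase under a CMV promoter from a lentivirus, were selected with puromycin and were collected at passage 30. Transduction, selection and passage number all differ between iECDCs and pECDCs, so their parts in that comparison cannot be told apart. The SB431542-treated libraries are labelled as the same immortalized cells at passage 30 after 3 days with the inhibitor, whereas the study's methods speak of an epithelial clone grown from primary cells under SB431542. The study's discussion describes such clones after a longer treatment than 3 days. The source of these cells and their treatment time are therefore taken from the labels. Cdkn2a, chosen after its values were seen, was counted 407 to 562 times per pECDC library and at most once per library in either other group. The labels do not say whether replicates were separate cultures, so p-values measure the spread between these libraries, which may be technical.

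Total counts ranged from 16568306 to 23951392 per library. Cardiosphere cell markers were read in every group, with Eng at 67.3, 86.3 and 76.0 FPKM and Thy1 at 122, 135 and 125 FPKM in pECDCs, iECDCs and SB431542-treated cells. FPKM is the count scaled by gene length and by the depth of the library. Other markers of this list of 6 differed between groups, with Dcn at 0.768, 0.470 and 13.2 FPKM, Ly6a at 4.76, 6.23 and 29.5 FPKM, Pdgfra at 15.6, 10.6 and 20.5 FPKM and Tbx18 at 19.6, 22.4 and 34.8 FPKM in the same order, all called higher in SB431542-treated cells than in pECDCs. Their part in the results was not tested. The 6 endothelial markers summed to at most 0.165 FPKM in any library, with Tie1 at 0 counts everywhere, and Ptprc had at most 4 counts while the blood cell gene Csf1r stood at 5.17 to 5.99 FPKM in the group means. In the same group order, Lyz2 stood at 0.496, 2.95 and 1.51 FPKM, Cd14 at 4.84, 4.84 and 8.40 FPKM and Cd68 at 1.74, 1.18 and 0.949 FPKM. Of 4 macrophage and blood cell markers tested, 1 was called higher in iECDCs than in pECDCs. After SB431542, 1 was higher and 1 lower against iECDCs, and 2 were higher and 1 lower against pECDCs. The 6 cardiomyocyte markers summed to at most 2.28 FPKM, with Myh6 at no more than 1 count. Tnnt2 of this list stood at 0.550, 1.41 and 0.169 FPKM and Tnni3 at 0.581, 0.484 and 0.581 FPKM in pECDCs, iECDCs and SB431542-treated cells. Of 2 cardiomyocyte markers tested, 1 was called higher in iECDCs than in pECDCs. After SB431542, 1 was called lower against iECDCs and 1 against pECDCs. The 4 brown adipocyte markers had at most 4 counts in any library, and Krt8, Krt18, Cdh1 and Epcam likewise had at most 4. Krt19, of the same epithelial list, stood at 19.0, 30.0 and 28.0 FPKM and was called higher in iECDCs than in pECDCs (log2 fold change 0.64, adjusted p = 0.000374). Within groups, iECDC replicate 3 and SB431542-treated replicate 2 stood apart. The chi-square per degree of freedom between replicates was 2.70 to 4.23 in pECDCs, 4.61 between iECDC replicates 1 and 2 but 24.9 and 30.8 against replicate 3, and 3.79 between SB431542-treated replicates 1 and 3 but 70.3 and 71.5 against replicate 2. Calls on the 10 genes that changed without these libraries are given below with their values.

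Promoter sequence was matched in RefSeq on GRCm38.p6 for 7 of the 10 genes, not for Fabp4, Lpl and Sox9. The 250 bases before the RefSeq start are shown for the matched genes that rose after SB431542 (Cebpb and Alpl), for the member with the highest level (Spp1) and for the member at the floor (Adipoq), 5′ to 3′ on the gene's strand. Capitals mark matches, on either strand, to any of 7 short motifs. These were the TATA box with the letters TATAAA, the CCAAT box, the GC box with GGGCGG, the RUNX core with TGTGGT, the SMAD element with CAGACA, the AP-1 site with TGANTCA and the core of the cyclic AMP response element with TGACGT. RefSeq holds a further start for Alpl, with its window at chr4:137766476-137766725, and for Spp1, with its window at chr5:104435942-104436191, and the first is shown for each. The windows shown lie at chr2:167688665-167688914 on the plus strand for Cebpb, chr4:137796385-137796634 on the minus strand for Alpl, chr5:104434861-104435110 on the plus strand for Spp1 and chr16:23146286-23146535 on the plus strand for Adipoq.
Cebpb: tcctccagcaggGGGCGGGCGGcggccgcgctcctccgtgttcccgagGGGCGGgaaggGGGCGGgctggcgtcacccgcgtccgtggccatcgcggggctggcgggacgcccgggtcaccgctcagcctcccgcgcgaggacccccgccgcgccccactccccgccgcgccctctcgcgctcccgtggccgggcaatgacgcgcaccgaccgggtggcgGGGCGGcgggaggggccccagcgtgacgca
Alpl: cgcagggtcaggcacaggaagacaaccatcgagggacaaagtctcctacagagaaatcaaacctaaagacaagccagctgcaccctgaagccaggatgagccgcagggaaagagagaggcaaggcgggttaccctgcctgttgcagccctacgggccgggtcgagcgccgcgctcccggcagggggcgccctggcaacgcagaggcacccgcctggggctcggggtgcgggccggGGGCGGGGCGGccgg
Spp1: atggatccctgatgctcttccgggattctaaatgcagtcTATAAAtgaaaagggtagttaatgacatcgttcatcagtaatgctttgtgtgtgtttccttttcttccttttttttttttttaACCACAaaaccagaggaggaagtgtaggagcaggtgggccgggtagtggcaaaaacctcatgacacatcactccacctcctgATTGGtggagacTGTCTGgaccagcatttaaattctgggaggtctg
Adipoq: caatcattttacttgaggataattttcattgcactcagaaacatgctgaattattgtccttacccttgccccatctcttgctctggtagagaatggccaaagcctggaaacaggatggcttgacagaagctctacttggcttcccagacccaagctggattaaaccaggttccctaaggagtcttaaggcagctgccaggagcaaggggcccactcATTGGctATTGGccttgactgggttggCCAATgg
The Cebpb window held 5 GC boxes, of which the pair farthest from the start overlapped, and the Alpl window shown held 2 overlapping GC boxes within 15 bases of the start. In the Spp1 window shown there were matches to the TATA box, RUNX core, CCAAT box and SMAD element, at 211, 128, 46 and 34 bases before the start. The further window of Alpl held a TATA box match on the reverse strand, 192 bases before the start, and no GC box, and that of Spp1 held none of the 7 motifs. Adipoq had 3 CCAAT boxes within 34 bases of its start. Of 32851 promoter windows of this length, 32.7% held a GC box, 33.8% a CCAAT box, 12.4% a TATA box, 14.0% a RUNX core, 17.1% a SMAD element, 6.75% an AP-1 site and 6.47% the cyclic AMP response element core. These are letter matches in a window and do not show that a factor binds there.

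Levels differed widely between the 10 genes. In pECDCs the mean FPKM fell in the order Spp1 (641), Cebpb (97.7), Sox9 (7.06), Runx2 (5.09), Cebpa (2.74), Pparg (2.66), Lpl (1.74), Alpl (1.10), Fabp4 (0.805) and Adipoq (0.0103). Cebpa and Pparg overlapped between libraries, as did Alpl and Fabp4, so their order is not set by these data. In iECDCs Runx2 (5.12 FPKM) stood above Sox9 (4.11 FPKM) without overlap, and Lpl and Alpl moved to the end of the order before Adipoq at 0.333 and 0.161 FPKM, with Lpl overlapping Fabp4 and Pparg overlapping Cebpa. In SB431542-treated cells Sox9 (9.45 FPKM) again stood above Runx2 (4.02 FPKM), and neighbours from Runx2 through Lpl, Pparg and Cebpa to Alpl overlapped. The deposited gene length of Fabp4, 4489 bases, equals its whole span with introns, against 896 bases in its longest coding transcript, and that of Lpl is 10478 against 4115 bases. Rescaled to the coding transcripts, Lpl and Fabp4 in pECDCs stood at 4.43 and 4.03 FPKM, above Pparg (3.70 FPKM) and Cebpa (2.75 FPKM). Runx2, deposited at 8837 against 6463 bases, stood at 6.96 FPKM in pECDCs on that scale, close to Sox9 at 7.06 FPKM. Fold changes between groups do not depend on this length.

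**Figure D1:**
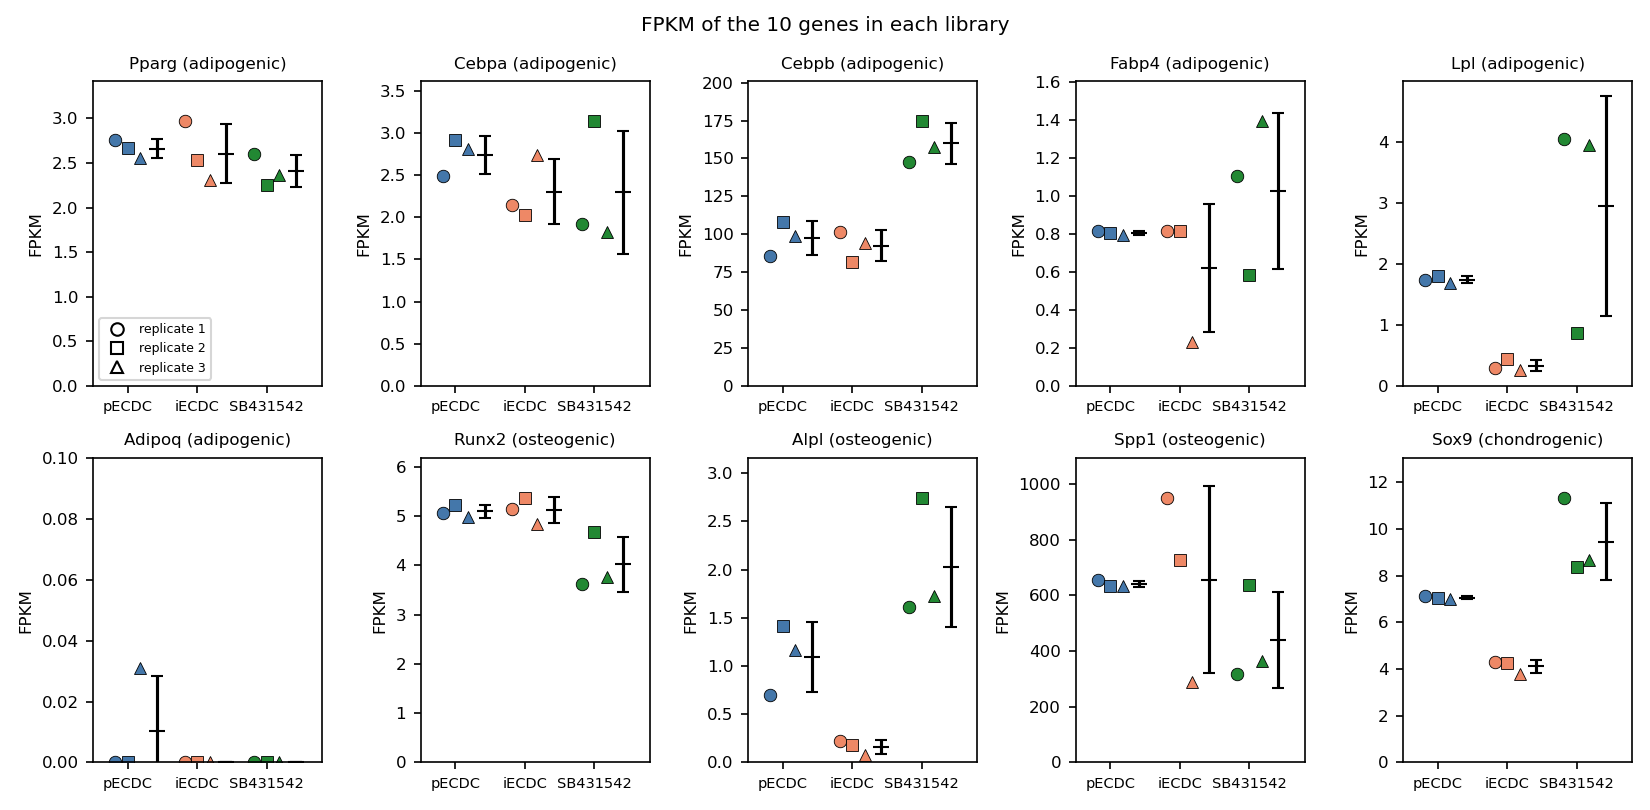
FPKM (y axis, from 0) of the 10 genes in each library (x axis, group; marker shape, replicate number), with the mean and SD of the 3 libraries as a black bar beside the points. Lpl and Alpl are lowest in iECDCs, Sox9 is highest in SB431542-treated cells, where its 3 libraries lie at 8.36 to 11.3 FPKM, and Pparg lies between 2.25 and 2.97 FPKM in all 9 libraries.

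Counts were tested in 3 comparisons with edgeR's quasi-likelihood test, and p-values were adjusted with the Benjamini-Hochberg method over all tested genes. Of the 10 genes 9 passed the filter on low counts in each comparison, and Adipoq did not. Between iECDCs and pECDCs, 3 of the 9 passed an adjusted p of 0.05, all lower in iECDCs, beside 16.4% of 13752 tested genes called in either direction, 7.21% higher and 9.21% lower. Those 3 also had groups that did not overlap, beside 39.9% of all tested genes. In SB431542-treated cells against iECDCs, 4 of 9 were called, all higher, beside 30.0% of 13559 genes called with 16.0% higher and 14.0% lower, and 5 of 9 did not overlap, beside 46.5% of all tested genes. Against pECDCs, 2 were higher and 1 was lower in SB431542-treated cells, beside 34.8% of 14015 genes called, 17.9% higher and 17.0% lower, and 4 of 9 did not overlap, beside 51.5%. Nothing particular to the 10 genes is read from these counts, and each group enters 2 of the 3 comparisons, which therefore share libraries. In bulk samples, fewer cells of a type and less RNA per cell cannot be told apart.

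The number of members called changed when the libraries that stood apart were left out. These libraries were picked after the data were seen. Calls gained without them therefore show dependence on those libraries and are no separate evidence for a gene. Without iECDC replicate 3, the comparison of iECDCs with pECDCs called 5 of 9 members, with Cebpa lower and Spp1 higher in addition, beside 31.7% of all genes. Without SB431542-treated replicate 2, the comparison with iECDCs called 5 of 9, with Runx2 lower in addition, beside 50.2% of all genes, whereas leaving out iECDC replicate 3 alone gave the same number, 4 of 9, beside 25.4%. Leaving out both libraries gave 7 of 9 beside 64.5%. Against pECDCs, leaving out SB431542-treated replicate 2 gave 8 of 9 members, all but Pparg, beside 64.1% of all genes. Leaving out any other library there left 1 member called, Cebpb, when between 2453 and 3390 of all tested genes were called.

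**Figure D2:**
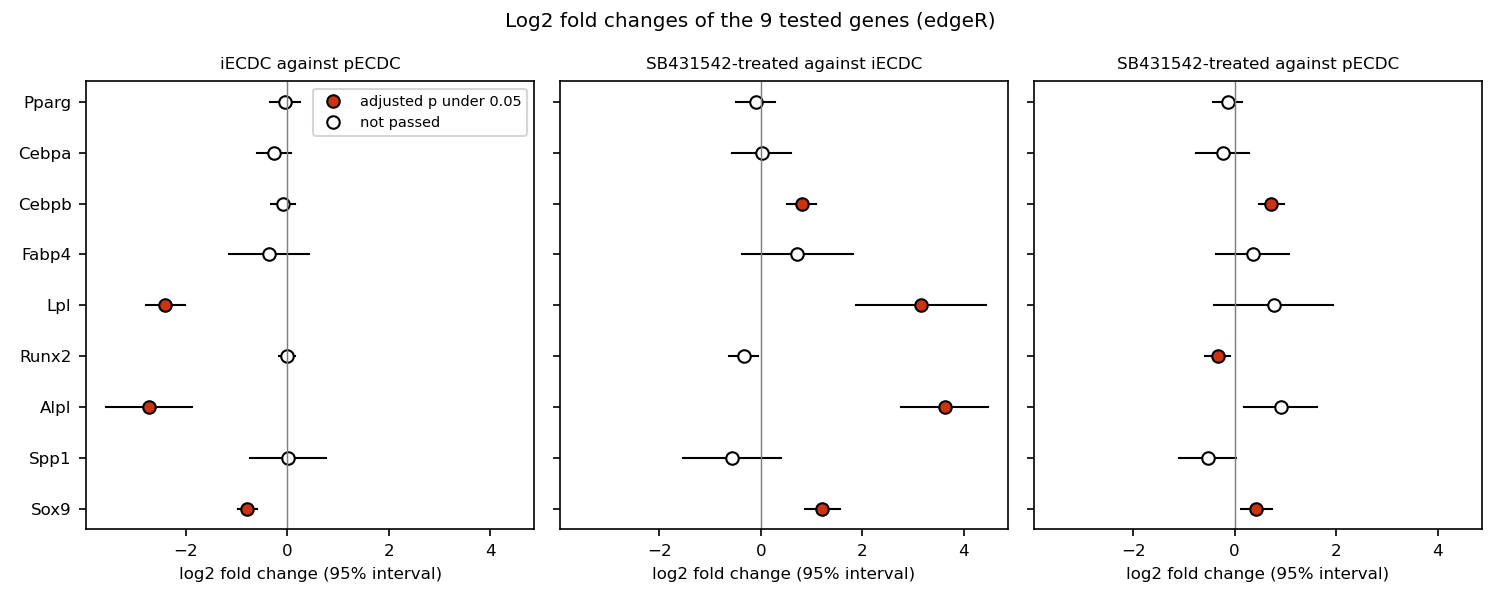
Log2 fold changes from edgeR (x axis) with their 95% intervals (lines) for the 9 tested genes (y axis), 1 panel per comparison of 3 against 3 libraries. Filled points passed an adjusted p of 0.05, and the members farthest from 0 are Lpl and Alpl, lower in iECDCs than in pECDCs (-2.40 and -2.72) and higher after SB431542 than in iECDCs (3.15 and 3.62).

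Among the adipogenic transcription factors, Pparg, which encodes the nuclear receptor PPARγ, lies at chr6:115360951-115490399 on the plus strand. It was read at 2.76, 2.67 and 2.55 FPKM in pECDC replicates 1, 2 and 3, at 2.97, 2.53 and 2.31 FPKM in the iECDC replicates and at 2.61, 2.25 and 2.36 FPKM in the SB431542-treated replicates. All 3 groups overlapped, on 105 to 200 counts per library. The log2 fold change was -0.04 (95% interval -0.33 to 0.25, adjusted p = 0.871) in iECDCs against pECDCs, -0.11 (-0.50 to 0.29, adjusted p = 0.659) in SB431542-treated cells against iECDCs and -0.14 (-0.42 to 0.14, adjusted p = 0.405) against pECDCs. A difference in Pparg was therefore not detected. The intervals are for single genes and are not adjusted over all genes, so changes inside them, and some beyond them, could have been missed.

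Cebpa, a gene of 1 exon at chr7:35119293-35121928 on the plus strand, encodes C/EBPα, the partner of PPARγ in terminal adipogenesis. Its levels were 2.49, 2.92 and 2.81 FPKM in pECDCs, 2.14, 2.03 and 2.74 FPKM in iECDCs and 1.93, 3.14 and 1.83 FPKM after SB431542. The highest library in each of the latter groups was the one that stood apart. No comparison passed the test with all libraries, with log2 fold changes of -0.27 (adjusted p = 0.255), 0.01 (adjusted p = 0.975) and -0.24 (adjusted p = 0.431) in the order above. Without iECDC replicate 3, Cebpa was lower in iECDCs than in pECDCs by a log2 fold change of -0.39 (adjusted p = 0.0360), and without SB431542-treated replicate 2 it was lower after SB431542 than in pECDCs (-0.53, adjusted p = 0.00254). Both libraries were picked after the data were seen, and 31.7% and 64.1% of all tested genes passed in these fits.

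The early adipogenic factor C/EBPβ is encoded by Cebpb, also a gene of 1 exon, at chr2:167688915-167690418 on the plus strand. pECDC libraries had 86.0, 108 and 98.7 FPKM, iECDC libraries 102, 81.5 and 94.4 FPKM, and SB431542-treated libraries 148, 175 and 157 FPKM. Each SB431542-treated library was above all 6 others, and the primary and immortalized groups overlapped. Cebpb was 1.74-fold higher after SB431542 than in iECDCs (log2 fold change 0.80 ± 0.12 SE, adjusted p = 0.00375) and 1.65-fold higher than in pECDCs (0.72 ± 0.11, adjusted p = 0.00320). Between iECDCs and pECDCs the log2 fold change was -0.09 (interval -0.33 to 0.15, adjusted p = 0.594). Tmem189 overlaps Cebpb on the opposite strand with 542 to 834 counts per library, and whether counting used strand is not given in the sources used here. The window shown above lies directly before the start of this gene.

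Lpl encodes lipoprotein lipase, which releases fatty acids from circulating triglycerides, and lies at chr8:68880491-68907448 on the plus strand. It was read at 1.74, 1.80 and 1.69 FPKM in pECDCs, at 0.298, 0.441 and 0.261 FPKM in iECDCs and at 4.04, 0.871 and 3.94 FPKM in SB431542-treated cells. All iECDC libraries were below all others, and SB431542-treated replicate 2 was below the pECDC libraries while replicates 1 and 3 were above them. Lpl was 5.27-fold lower in iECDCs than in pECDCs (log2 fold change -2.40 ± 0.17, adjusted p = 3.62e-05). It was 8.91-fold higher after SB431542 than in iECDCs (3.15 ± 0.56, adjusted p = 0.00602). Against pECDCs the log2 fold change was 0.77 (interval -0.40 to 1.94, adjusted p = 0.265), and without SB431542-treated replicate 2 it was 1.21 (adjusted p = 2.54e-11).

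The fatty acid binding protein of adipocytes is encoded by Fabp4, at chr3:10204088-10208576 on the minus strand. Its FPKM values were 0.817, 0.806 and 0.792 in pECDCs, 0.817, 0.813 and 0.232 in iECDCs and 1.11, 0.583 and 1.39 after SB431542, on 16 to 113 counts. The lowest value in each of the latter groups came from the library that stood apart, and the groups overlapped. The test was passed in no comparison, with log2 fold changes of -0.36 (adjusted p = 0.514), 0.72 (adjusted p = 0.280) and 0.35 (adjusted p = 0.398) in the same order. Without SB431542-treated replicate 2, Fabp4 was higher after SB431542 than in pECDCs (0.64, adjusted p = 0.00177), and without both libraries it was higher than in iECDCs (0.63, adjusted p = 0.00898). The libraries left out were picked after the data were seen, and 64.1% and 64.5% of all tested genes passed in these fits.

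Adipoq, which encodes the adipocyte hormone adiponectin, lies at chr16:23146536-23158028 on the plus strand. It had 1 count in pECDC replicate 3 and 0 counts in the other 8 libraries. A count of 0 allows up to 3 counts, or 1.25e-05% to 1.81e-05% of a library, and these floors cover counting error only. Other genes of mature fat cells were at the floor with it. Of 54 adipogenic genes listed, 8 had at most 3 counts in every library, among them the lipid droplet protein gene Plin1, the leptin gene Lep and the fatty acid carrier gene Cd36.

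In the osteogenic set, Runx2, the transcription factor of osteoblast commitment, spans chr17:44495987-44814797 on the minus strand. It stood at 5.07, 5.22 and 4.98 FPKM in pECDCs, at 5.15, 5.37 and 4.84 FPKM in iECDCs and at 3.63, 4.66 and 3.76 FPKM after SB431542. The first groups overlapped, and each SB431542-treated library lay below all 6 others, with replicate 2 the nearest to them. iECDCs and pECDCs differed by a log2 fold change of -0.01 (interval -0.16 to 0.15, adjusted p = 0.972). After SB431542, Runx2 was 1.26-fold lower than in pECDCs (log2 fold change -0.33 ± 0.10, adjusted p = 0.0447) and, against iECDCs, the log2 fold change of -0.34 missed the threshold (adjusted p = 0.0708).

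The Runx2 call against pECDCs changed with the libraries used. It was lost when SB431542-treated replicate 1 (adjusted p = 0.129) or replicate 3 (0.126) or pECDC replicate 1 (0.126), 2 (0.144) or 3 (0.114) was left out. Without SB431542-treated replicate 2 the log2 fold change was -0.45 against pECDCs (adjusted p = 5.03e-06) and -0.46 against iECDCs (adjusted p = 0.00338). Supt3 overlaps Runx2 on the opposite strand with 146 to 270 counts, and the antisense genes Runx2os1 and Runx2os2 had at most 30 and 9 counts.

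Alpl encodes tissue-nonspecific alkaline phosphatase, an early enzyme of matrix mineralization, at chr4:137741733-137796384 on the minus strand. The pECDC libraries had 0.698, 1.42 and 1.17 FPKM, the iECDC libraries 0.221, 0.181 and 0.0807 FPKM and the SB431542-treated libraries 1.61, 2.75 and 1.73 FPKM. None of the 3 groups overlapped, with iECDCs lowest on 5 to 18 counts and SB431542-treated cells highest on 114 to 233 counts. Alpl was 6.57-fold lower in iECDCs than in pECDCs (log2 fold change -2.72 ± 0.37, adjusted p = 0.00168). It was 12.3-fold higher after SB431542 than in iECDCs (3.62 ± 0.37, adjusted p = 0.000967). Against pECDCs the log2 fold change was 0.91 ± 0.31 and missed the threshold (adjusted p = 0.0559), and without SB431542-treated replicate 2 it was 0.64 (adjusted p = 0.0107).

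Spp1, which encodes the secreted matrix protein osteopontin, lies at chr5:104435118-104441050 on the plus strand and had the highest level of the 10 genes in all 9 libraries. It was read at 653, 634 and 635 FPKM in pECDCs, at 950, 728 and 290 FPKM in iECDCs and at 319, 637 and 365 FPKM in SB431542-treated cells. The pECDC libraries lay close together, the iECDC libraries lay above and below them with replicate 3 the lowest, and SB431542-treated replicates 1 and 3 lay below them with replicate 2 inside their range. The log2 fold change was 0.02 (interval -0.72 to 0.77, adjusted p = 0.974) in iECDCs against pECDCs, -0.57 (-1.53 to 0.39, adjusted p = 0.329) in SB431542-treated cells against iECDCs and -0.53 (-1.10 to 0.03, adjusted p = 0.125) against pECDCs. Without iECDC replicate 3, Spp1 was higher in iECDCs than in pECDCs (0.38, adjusted p = 0.000913). Without SB431542-treated replicate 2, Spp1 was lower after SB431542 than in pECDCs (-0.90, adjusted p = 3.65e-11), and without both libraries it was lower than in iECDCs (-1.29, adjusted p = 2.81e-15). The libraries left out were picked after the data were seen and lay apart from their groups for Spp1 too. In these fits 31.7%, 64.1% and 64.5% of all tested genes passed, so a difference in Spp1 is not established by them.

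Sox9, the master transcription factor of chondrogenesis, lies at chr11:112782224-112787760 on the plus strand. Its levels were 7.14, 7.02 and 7.01 FPKM in pECDCs, 4.31, 4.25 and 3.78 FPKM in iECDCs and 11.3, 8.36 and 8.66 FPKM after SB431542. None of the groups overlapped, and the order was iECDCs, pECDCs and SB431542-treated cells from low to high. Sox9 was 1.73-fold lower in iECDCs than in pECDCs (log2 fold change -0.79 ± 0.08, adjusted p = 0.000351) and 2.31-fold higher after SB431542 than in iECDCs (1.21 ± 0.15, adjusted p = 0.00168). Against pECDCs it was 1.35-fold higher (0.43 ± 0.13, adjusted p = 0.0366). That last call was lost without SB431542-treated replicate 1 (log2 fold change 0.28, adjusted p = 0.0520) or replicate 3 (0.49, adjusted p = 0.0537) and without pECDC replicate 1, 2 or 3 (adjusted p = 0.110, 0.115 and 0.116). Without replicate 2 of the treated cells the log2 fold change was 0.51 (adjusted p = 4.70e-05).

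The fate regulators can also be read against each other within a library, as ratios of FPKM values given without a test. The ratio of Sox9 to Runx2 was 1.41, 1.34 and 1.41 in pECDCs, 0.838, 0.792 and 0.781 in iECDCs and 3.13, 1.79 and 2.30 after SB431542. With deposited gene lengths, Sox9 was thus above Runx2 in all pECDC and SB431542-treated libraries and below it in all iECDC libraries. The order of these genes within a library depends on those lengths. Rescaled to the coding transcripts, the mean of Runx2 in pECDCs was 6.96 FPKM, close to Sox9 at 7.06 FPKM. Their order in pECDCs is therefore not set by these data. Differences in a ratio between groups do not depend on gene length. The ratio of Pparg to Runx2 lay between 0.472 and 0.719 in all 9 libraries, and its groups overlapped. Cebpb stood at 34.5 to 47.5 times the level of Cebpa in the untreated libraries and at 55.6 to 86.2 times after SB431542, without overlap.

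**Figure D3:**
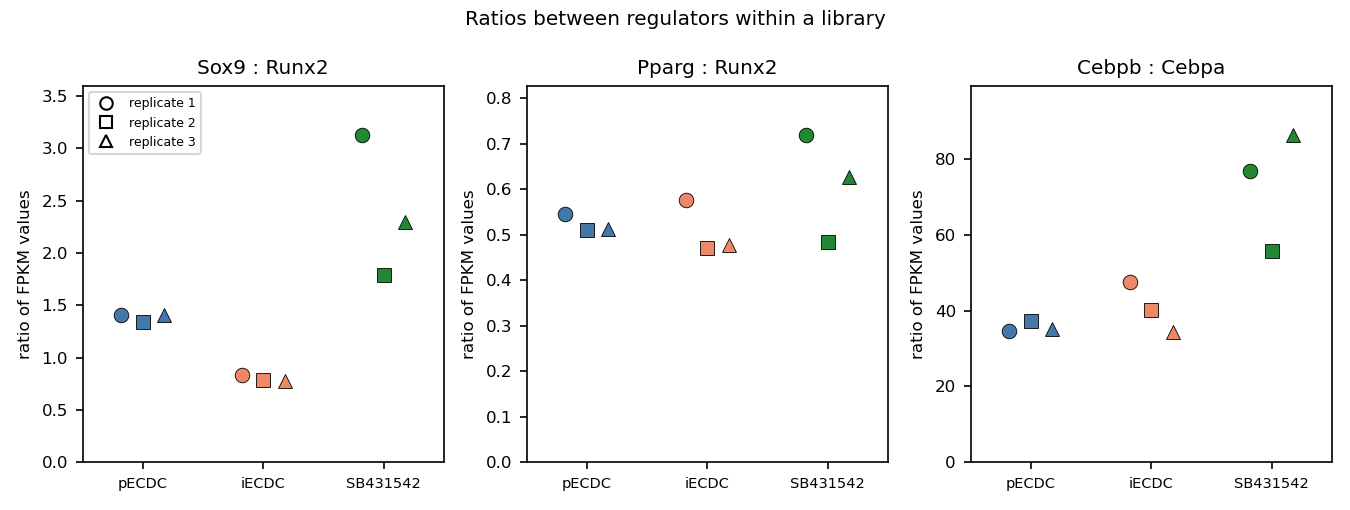
Ratios of FPKM values within each library (y axis, from 0) for 3 pairs of regulators, by group (x axis) and replicate number (marker shape). With deposited gene lengths, the Sox9 to Runx2 ratio lies below 1 in the 3 iECDC libraries (0.781 to 0.838) and above 1 in the other 6. The Pparg to Runx2 ratio overlaps between groups.

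Other genes of the adipogenic programme were read from a list of 48 genes beside the 6 members, of which 36 or 37 passed the filter. In iECDCs against pECDCs, 9 of 36 rose and 10 fell, beside the 7.21% and 9.21% of all tested genes given above, with a median log2 fold change of -0.06 beside -0.00 over all tested genes. The lipase inhibitor gene Angptl4 (log2 fold change 0.83 ± 0.14, adjusted p = 0.00464), the triglyceride synthesis gene Dgat2 (0.80) and the lipid droplet gene Plin2 (0.79) rose, and the transcription factor gene Klf9 (-0.77), the zinc finger gene Zfp467 (-0.65) and the desaturase gene Scd1 (-0.56) fell. After SB431542, 19 of 37 rose and 5 fell against iECDCs, beside 16.0% and 14.0% of all genes, with a median of 0.41 beside 0.00 over all tested genes. Klf15, a transcription factor of adipocyte differentiation, rose from 0.223 to 3.98 FPKM (log2 fold change 4.10 ± 0.43, adjusted p = 0.000984), the hormone-sensitive lipase gene Lipe rose by 1.67 and the phosphatidate phosphatase gene Lpin1 by 1.53 on the log2 scale.

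Not all adipogenic genes that moved act in one direction. The counts and medians do not separate genes that drive adipogenesis from genes that restrain it. Klf2, known to restrain adipogenesis, fell from 8.87 to 2.45 FPKM (log2 fold change -1.84 ± 0.39, adjusted p = 0.0121), and Plin2 (-0.65) and the adiponectin receptor gene Adipor1 (-0.36, adjusted p = 0.0382) fell as well. Below 1 FPKM in both groups, Dlk1 rose from 0.215 to 0.646 FPKM (log2 fold change 1.61, adjusted p = 0.00644). Ebf2, also below 1 FPKM, fell from 0.149 to 0.0306 FPKM (-2.22, adjusted p = 0.0128). The Adipor1 call was lost without any of iECDC replicates 1, 2 and 3 (adjusted p = 0.0851, 0.0966 and 0.0716) and without SB431542-treated replicate 1 or 3 (0.126 and 0.167), and that of Klf2 without iECDC replicate 1 (0.0553). Against pECDCs, 19 of 37 rose and 2 fell after SB431542, beside 17.9% and 17.0% of all genes (median 0.45 beside 0.01), with Klf15 (3.07), Lipe (1.65) and the coactivator gene Ppargc1b (1.12) higher and Klf2 (-2.13) lower. With the members included, 20, 26 and 22 adipogenic genes were called in the 3 comparisons. Leaving out pECDC replicate 1, 2 or 3 gave 11, 12 and 11 in the comparison of iECDCs with pECDCs, leaving out SB431542-treated replicate 1 or iECDC replicate 1 gave 17 in SB431542-treated cells against iECDCs, and leaving out SB431542-treated replicate 2 gave 35 against pECDCs, when 64.1% of all tested genes were called. Calls over all tested genes moved too. With any library left out they ranged from 1036 to 4467 in iECDCs against pECDCs (2258 with all libraries). In SB431542-treated cells against iECDCs the range was 1707 to 7001 (4061 with all libraries). Zfp467 was not called in iECDCs against pECDCs without iECDC replicate 2 (adjusted p = 0.0768) or any pECDC library (0.104, 0.136 and 0.136), nor was Ppargc1b against pECDCs without pECDC replicate 2 or 3 (0.0624 and 0.0666).

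Of 45 other osteogenic genes, 29 or 30 passed the filter. In iECDCs against pECDCs, 3 of 30 rose and 8 fell, beside 7.21% and 9.21% of all tested genes (median log2 fold change -0.06 beside -0.00). The AP-1 subunit gene Fosl1 rose from 56.4 to 101 FPKM (0.82 ± 0.07, adjusted p = 7.62e-05), and the phosphate transporter genes Slc20a2 (0.34) and Slc20a1 (0.26) rose. Mgp, which encodes an inhibitor of mineralization, fell from 146 to 40.3 FPKM (-1.87 ± 0.16, adjusted p = 0.000108), as did the integrin gene Itgb3 (-0.99) and the parathyroid hormone receptor gene Pth1r (-0.88). After SB431542 only Mgp and Bmp4 rose against iECDCs and 9 of 29 genes fell, beside 16.0% and 14.0% of all genes, with a median of -0.31 beside 0.00. Mgp reached 410 FPKM (3.36 ± 0.29, adjusted p = 0.000570) and the growth factor gene Bmp4 rose from 1.66 to 7.02 FPKM (2.09 ± 0.30, adjusted p = 0.00267).

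Tnfrsf11b, the gene of the decoy receptor osteoprotegerin, fell from 8.43 to 1.28 FPKM after SB431542 (log2 fold change -2.71 ± 0.18, adjusted p = 0.000315 against iECDCs), and the pyrophosphate-forming enzyme gene Enpp1 (-1.93) and the BMP receptor gene Bmpr1b (-1.67) fell too. Against pECDCs, 4 of 30 osteogenic genes rose and 11 fell, beside 17.9% and 17.0% of all genes (median -0.26 beside 0.01), among them Bmp4 (2.23), Mgp (1.50) and the phosphatase gene Phospho1 (0.95) higher, and Tnfrsf11b (-2.62), Bmpr1b (-1.99) and the hyaluronan receptor gene Cd44 (-1.55) lower. Tnfsf11, the gene of the osteoprotegerin ligand RANKL, had 0 counts in all SB431542-treated libraries and had a log2 fold change of -3.33 or below against pECDCs, taking 3 counts per library as the floor, and the list's median stayed at -0.26 with that bound. Several late bone genes were at the floor, whereas Phospho1 had 18 to 65 counts and Phex 1 to 16. Bglap, Bglap2, Ibsp, Dmp1, Mepe and Sost were among 9 of 48 osteogenic genes with at most 3 counts in every library, and Sp7, the factor downstream of RUNX2, had 0 to 4 counts. With members included, 12, 12 and 16 genes were called. Leaving out iECDC replicate 1 or pECDC replicate 1, 2 or 3 gave 7, 6, 4 and 5 in the comparison of iECDCs with pECDCs, and leaving out iECDC replicate 3 gave 19 beside 31.7% of all genes. Over all tested genes, calls in that comparison ranged from 1036 to 4467 with any library left out, against 2258 with all libraries. Without SB431542-treated replicate 2 the counts were 21 against iECDCs and 28 against pECDCs, beside 50.2% and 64.1% of all genes, and without pECDC replicate 3 the latter was 10. All-gene calls against pECDCs ranged from 2453 to 9188 with any library left out, against 4881 with all libraries. Leaving out single libraries also lost the calls of Slc20a1 (adjusted p = 0.0910 to 0.174, without 5 libraries), Slc20a2 (0.0897 to 0.115, without any pECDC library), Pth1r (0.0517, without pECDC replicate 2) and Phospho1 (0.0524 or above, without SB431542-treated replicate 1 or any pECDC library).

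The chondrogenic list held 41 genes beside Sox9, and only 16 to 19 passed the filter. In iECDCs against pECDCs none rose and 6 of 17 fell, beside 7.21% of all tested genes higher and 9.21% lower, with a median log2 fold change of -0.42 beside -0.00, and Sox9 fell in the same comparison. The cartilage collagen gene Col11a1 (-0.73 ± 0.07, adjusted p = 0.000272), the chondroitin sulfotransferase gene Chst11 (-0.64) and the repressor gene Trps1 (-0.52) were among those that fell. After SB431542, 6 of 16 rose and 5 fell against iECDCs, beside 16.0% and 14.0% of all genes (median 0.09 beside 0.00). Against pECDCs, 4 of 19 rose and 7 fell, beside 17.9% and 17.0% (median 0.01 beside 0.01). The lubricin gene Prg4 rose from 0.0604 to 1.93 FPKM (5.01 ± 0.82, adjusted p = 0.00468 against iECDCs), and Arid5a (1.55) and Arid5b (1.27), genes of SOX9 coregulators, rose with it. Col11a1 fell from 12.4 to 1.68 FPKM (-2.87 ± 0.19, adjusted p = 0.000315), and Chst11 (-1.27) and the sulfate donor gene Papss2 (-0.94) fell as well. Below 1 FPKM, Sox5 rose (2.63, adjusted p = 0.000912) and Pax1 fell (-3.05, adjusted p = 0.00271) against iECDCs. The Papss2 call was lost without any of iECDC replicates 1, 2 and 3 (adjusted p = 0.0687, 0.0998 and 0.0666) and without SB431542-treated replicate 1 (0.0505).

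Against pECDCs, Col11a1, Chst11 and Papss2 were the lowest of the chondrogenic genes named at 1 FPKM or more, with log2 fold changes of -3.59, -1.89 and -1.22. Prg4 (3.38), Arid5a (1.32) and Arid5b (0.90) rose. The Prg4 call was lost without pECDC replicate 1 (adjusted p = 0.0568). Several cartilage matrix genes that SOX9 is known to switch on, Col2a1, Col9a1, Col9a2, Acan, Matn1 and Hapln1, were among the 13 of 42 chondrogenic genes with at most 3 counts in every library. With Sox9 included, 7, 12 and 12 genes were called, and leaving out iECDC replicate 3 gave 13 in the comparison of iECDCs with pECDCs, when 31.7% of all tested genes were called. Smooth muscle markers moved between the same groups. Their 6 genes, mainly Acta2, summed to 721 to 744 FPKM in pECDCs, 817 to 1922 in iECDCs, highest in replicate 3, and 139 to 331 after SB431542, highest in replicate 2. Of 5 smooth muscle markers tested, 1 was called higher and 1 lower in iECDCs than in pECDCs. Myh11 stood at 0.174 and 0.730 FPKM in pECDCs and iECDCs, and Cspg4 at 0.154 and 0.0286 FPKM. After SB431542, 2 of 4 were called lower against iECDCs and 2 of 5 against pECDCs, beside the shares of all tested genes given above. The part of these markers in the results was not tested. The mesothelial gene Upk3b stood at 0.130, 0.120 and 1.28 FPKM in pECDCs, iECDCs and SB431542-treated cells, and Wt1 at 0.0484, 0.0119 and 0.284 FPKM. The 8 mesothelial and epithelial markers together summed to 18.7 to 19.9, 29.0 to 31.5 and 24.9 to 39.8 FPKM in these groups, mainly from Krt19, and their part was not tested.

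**Figure D4:**
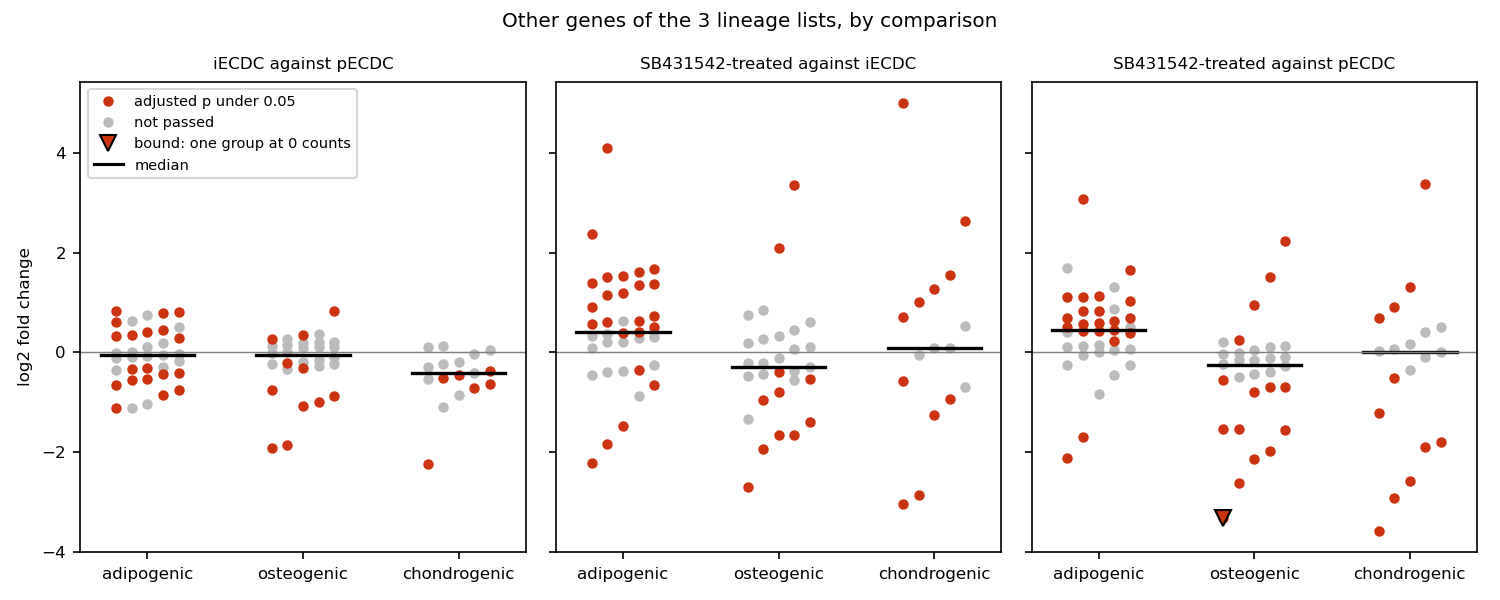
Log2 fold changes from edgeR (y axis) of the tested genes of each list beside the members (x axis), 1 panel per comparison, with those at an adjusted p under 0.05 in red and the list median as a black line. Most adipogenic genes lie above 0 after SB431542 (medians 0.41 and 0.45), the chondrogenic median is -0.42 in iECDCs against pECDCs, and the triangle is Tnfsf11, drawn at its bound because its treated libraries held 0 counts.

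The 2 libraries that stood apart differed from their group in a gene-dependent way. In SB431542-treated replicate 2, Lpl was at 0.218 and Fabp4 at 0.466 times the mean of replicates 1 and 3, whereas Spp1 was at 1.86, Cebpa at 1.67, Alpl at 1.64 and Runx2 at 1.26 times that mean. Lpl, Fabp4, Spp1, Runx2 and Sox9 lay nearer to the iECDC means in this library than in replicates 1 and 3, whereas Pparg, Cebpa, Cebpb and Alpl lay farther from them. In iECDC replicate 3, Fabp4 was at 0.285, Spp1 at 0.346 and Alpl at 0.401 times the mean of replicates 1 and 2, and Cebpa at 1.31 times. Cebpb in iECDC replicate 3, at 94.4 FPKM, was inside the range of the other libraries, and Sox9 was slightly below it at 3.78 FPKM.

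**Figure D5:**
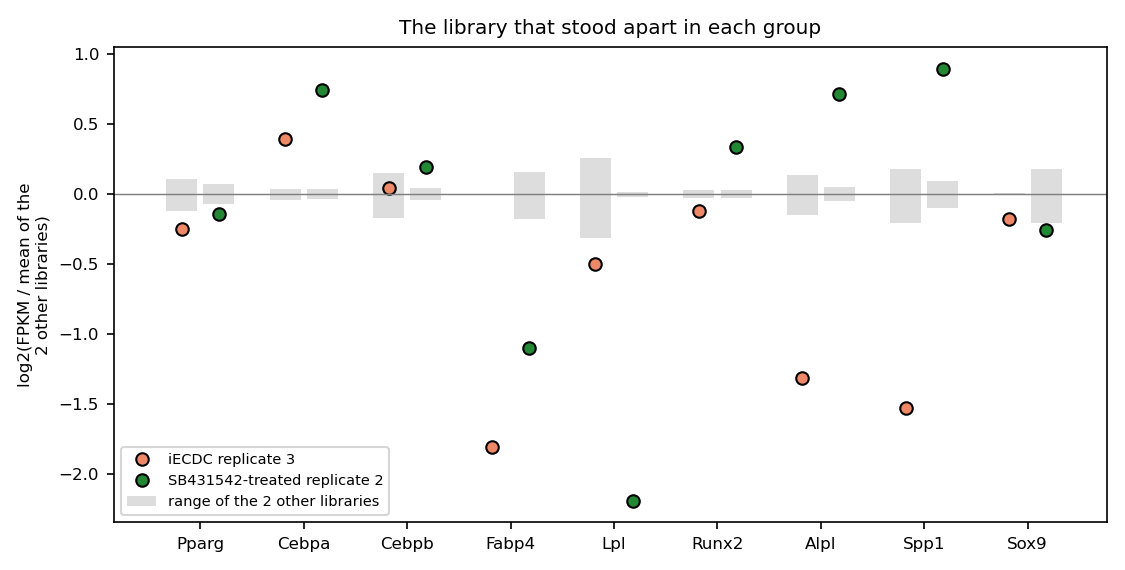
Log2 ratio of the FPKM of iECDC replicate 3 and of SB431542-treated replicate 2 to the mean of the 2 other libraries of their group (y axis) for 9 genes (x axis), with grey bars for the range of those 2 libraries. Lpl in SB431542-treated replicate 2 is farthest below the others, at 0.218 times their mean, and Spp1 goes down in one library (0.346) and up in the other (1.86).

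The genes most alike to each called member were sought among 10725 protein-coding genes, by the root mean square difference of log2(FPKM + 1) values centred and scaled over the 9 libraries. Cebpb was most like Nudt22 (0.166) and Wdr45 (0.230), the latter at 1.91, 1.85 and 3.50 FPKM in pECDCs, iECDCs and SB431542-treated cells. Lpl was most like Samd10 (0.124) and the sphingosine phosphate receptor gene S1pr3 (0.139), and S1pr3 showed the same low value in SB431542-treated replicate 2, at 2.39 FPKM against 11.3 and 11.2 FPKM. Runx2 was closest to the RNA-binding protein gene Syncrip (0.124). Alpl came nearest to Serpinb1a (0.174) and the kinase gene Jak2 (0.249), and Sox9 to the glycosyltransferase gene Mgat3 (0.161) and the kinase gene Map3k5 (0.181). Mgat3 had 4.30, 1.73 and 7.80 FPKM in the 3 groups, with the same order as Sox9. These distances describe 9 libraries in 3 groups and come without a test.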

How the data were processed

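RNA was sequenced from 9 libraries, 3 per group, and groups were taken from the labels. The authors deposited raw read counts per gene, without normalization, and FPKM values. Dividing each count by gene length and a library's constant gave the FPKM back, except for 1 value in pECDC replicate 3. The submitters' processing notes name Bowtie2 2.0.6, TopHat2 2.0.9 and mm9. The deposited starts and ends equal those of GENCODE M21 on GRCm38 for 53499 of 54409 shared genes, so coordinates are given on GRCm38. The counting program is not given in the sources used here. The authors' own fold changes and p-values, deposited in the same table, were not used.

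Counts were tested with edgeR 4.0.16 (TMM, filterByExpr with a minimum count of 10 and total of 15, glmQLFTest, Benjamini-Hochberg over all tested genes, threshold 0.05), with only the compared groups in each fit, and the steps were tested on simulated data. SEs are the log2 fold change divided by the square root of F. The common biological coefficient of variation was 0.0919 (iECDC, pECDC), 0.171 (SB431542-treated, iECDC) and 0.144 (SB431542-treated, pECDC). Alternatives were DESeq2 1.42.0, other scalings and filters, limma 3.58.1 on log2(FPKM + 1) and log2(FPKM + 0.1), a replicate block and libraries left out. The members and lists were chosen with earlier results of these data known. Named were all members and, per list and comparison, up to 3 genes with the largest change each way among those called, at 1 FPKM or more in a group and without overlap. Dlk1, Ebf2, Sox5 and Pax1 were named outside this rule, after their values were seen. Ratios and levels carry no test.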

Additional observations from a re-analysis of the deposited data

How the results depend on the processing

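Over 27 results of single members, 412 alternative values kept their direction and their side of the threshold in 363 cases, lost the call in 13, gained one in 16 and changed sign in 20, and 11 results kept both throughout. No sign change concerned a called value. In iECDCs against pECDCs, the log2 fold change of Runx2 turned to 0.0021 with DESeq2, 0.0018 with RLE size factors, 0.0066 and 0.0057 with limma on log2(FPKM + 0.1) and log2(FPKM + 1), 0.037 without iECDC replicate 3 and 0.016 without pECDC replicate 2, and ran from -0.038 to 0.037 with any library left out. That of Spp1 turned to -0.13 with both limma fits and the replicate block, -0.34 without iECDC replicate 1 and -0.055 without replicate 2 (range -0.34 to 0.38). Without iECDC replicate 3, Pparg turned to 0.045 (range -0.15 to 0.045) and Fabp4 to 0.0085 (range -0.62 to 0.0085). In SB431542-treated cells against iECDCs, Cebpa turned to -0.034 and -0.019 with limma, -0.021 with the replicate block, -0.044, -0.075 and -0.28 without iECDC replicate 1, iECDC replicate 2 or SB431542-treated replicate 2 (range -0.28 to 0.16), and -0.15 without both libraries that stood apart. The causes were not tested.

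Counts of calls moved as follows. With an absolute log2 fold change of at least 1, iECDCs against pECDCs gave 512 genes in all and 2, 4 and 1 of the adipogenic, osteogenic and chondrogenic lists, SB431542-treated cells against iECDCs 1434 and 15 adipogenic, and against pECDCs 1330 in all, 8 adipogenic, 9 osteogenic and 0 members (main counts 2258, 4061 and 4881). With all 9 libraries in the fit, iECDCs against pECDCs gave 671 genes, 31.0% of them higher against 43.9%, and 11, 4 and 4 of the lists, and SB431542-treated cells against iECDCs gave 21 osteogenic genes beside 5850 genes in all. Without a filter, 12 chondrogenic genes were called in iECDCs against pECDCs, beside 3088 genes in all. Leaving out both libraries that stood apart, chosen after seeing the data, gave 7 members, 8951 genes, 37 adipogenic and 28 osteogenic genes in SB431542-treated cells against iECDCs.

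With any library left out, iECDCs against pECDCs gave 3 to 5 members, 1036 to 4467 genes, and 11 to 24, 4 to 19 and 5 to 13 of the lists. SB431542-treated cells against iECDCs gave 4 to 5 members, 1707 to 7001 genes, and 17 to 32, 9 to 21 and 9 to 12, and against pECDCs 1 to 8 members, 2453 to 9188 genes, and 15 to 35, 10 to 28 and 8 to 14.

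The labels do not pair the samples by replicate number. Deviations of same-numbered libraries correlated at -0.28 to 0.05 and those of differently numbered libraries at -0.13 to 0.22. The highest value was for iECDC replicate 3 with SB431542-treated replicate 2. With 3 libraries per group, these correlations cannot exclude pairing or shared batches. With a replicate block, 1791, 3038 and 3886 genes were called, Runx2 lost its call against pECDCs (adjusted p = 0.0560) and Alpl gained one (0.0200). The Runx2 call against pECDCs was also lost with limma (adjusted p = 0.0579 and 0.0585). Runx2 passed against iECDCs with all 9 libraries in the fit (0.0237). The Alpl difference against pECDCs passed with DESeq2 (0.0193), all 9 libraries (0.0470) and no filter (0.0233). Fabp4 and Alpl rest on few counts in some libraries, which limits what can be detected there.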
